A study of Mus musculus with 4 samples.

Results

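The 10 genes described here encode transcription factors of the pluripotency network: *Pou5f1*, *Sox2*, *Nanog*, *Klf4*, *Klf5*, *Klf17*, *Esrrb*, *Nr5a2*, *Sall4* and *Zfp42*. They were chosen by name, as the rows of the expression tables that carry these symbols, and all 10 were found among 24411 listed genes. RNA-seq was performed on mouse embryos of the ICR strain, produced by in vitro fertilization and collected at the late two-cell stage, 36 h post-insemination (hpi). The control group was cultured with DMSO, the solvent, and the treated group with 6 µM 10074-G5, a small molecule that keeps the transcription factor MYC from pairing with its partner MAX. Both groups were cultured in KSOM with bovine serum albumin, and each group had 2 libraries, each made from 10 pooled embryos. Treatment began at the one-cell stage and lasted until collection. The inhibitor was given to the whole embryo, no second inhibitor and no inactive analog were sequenced, and although the methods call the replicates biological, they do not say whether these came from separate fertilizations, so the p-values measure only the spread between these samples, which may be partly technical.

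In pluripotent cells, OCT4 (the product of *Pou5f1*) and SOX2 bind DNA side by side, and together with NANOG they maintain each other's genes and those of the undifferentiated state. Krüppel-like factors and the nuclear receptors ESRRB and NR5A2 act on many of the same regulatory elements, and can stand in for one another in embryonic stem cells. In the mouse embryo the network is assembled in steps: some of the factors are present from the oocyte or from zygotic genome activation (ZGA), and others are switched on only later, towards the inner cell mass of the blastocyst. MYC-MAX binds the E-box and is itself one of the factors used, with OCT4, SOX2 and KLF4, to reprogram somatic cells.

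The expected counts, which are RSEM's estimates of the fragments from each gene, summed to between 18206584 and 20718690 per library. DMSO replicate 1 stood apart from the other 3 libraries. The median of 13 two-cell markers such as the *Zscan4* genes, on the log2 scale of CPM (counts scaled to library size) and relative to each gene's own mean, was −1.76 in that library and 0.39 to 0.73 in the others. The median of 10 oocyte transcripts on the same scale was −0.93 in DMSO replicate 1 and 0.00 to 0.50 in the others. Markers of other cells were in part at 0 and in part expressed. The summed FPKM (fragments scaled to transcript length and library) of 10 cumulus and granulosa genes ran from 6.61 to 22.1. *Amh*, *Foxl2*, *Inha*, *Inhba* and *Ptx3* were at 0 in every library, but a single gene of this list reached 21.5 FPKM in DMSO replicate 1. The sum of 6 sperm genes ran from 2.7 to 16.1, with *Prm1*, *Tnp2* and *Smcp* at 0. A single sperm gene reached 15.8 FPKM in inhibitor replicate 1. Both of these values lie among the mean levels of the factors given below. The part of DMSO replicate 1 in the differences described here was not tested, and the fold changes of the factors and of the related genes named are given with and without it. In these bulk libraries, fewer cells with a transcript and less of it per cell cannot be told apart.

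Of the 10 factors, 9 were measurable at 36 hpi, with at least 10 counts in each of the 4 libraries. *Sox2* passed this limit narrowly, with 10 counts in DMSO replicate 1. A stricter limit of 1 FPKM in each library left 8, without *Sox2* and *Nanog*. *Nanog* (GRCm38.p6, chr6:122707489-122714633), which encodes a homeodomain factor of the inner cell mass, had 0 and 3 counts in the DMSO libraries and 0 in both inhibitor libraries. It was therefore at or under the floor of 3 counts per library, equal to 0.0790 to 0.0961 FPKM, and no fold change was computed for it. These floors cover counting error only, because PCR copies were counted like separate molecules. The reference annotation lists 2 *Nanog* pseudogenes, neither of which is among the listed genes. Reads shared with them could be missing from these counts.

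Ranked by mean FPKM over the 4 libraries, which scales for transcript length and so lets genes be compared, *Klf17* came first with 86.8 ± 17.0 FPKM (SD, n = 4) and *Sall4* next with 65.2 ± 3.19 FPKM. *Zfp42* (23.8 FPKM), *Nr5a2* (19.6 FPKM), *Klf5* (15.3 FPKM), *Klf4* (13.4 FPKM) and *Pou5f1* (12.2 FPKM) formed a middle group. *Sox2* (3.06 FPKM) and *Esrrb* (2.67 FPKM) were low, and *Nanog* averaged 0.025 FPKM. The only neighbours in this order whose ranges over the libraries did not overlap were *Sall4* and *Zfp42*, and *Esrrb* and *Nanog*. *Klf17* exceeded *Sall4* in 3 of 4 libraries, the exception being DMSO replicate 1. Together the *Klf17* and *Sall4* values made up 61.2% to 64.2% of the summed FPKM of the 10 factors in the 4 libraries.

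**Figure D1:**
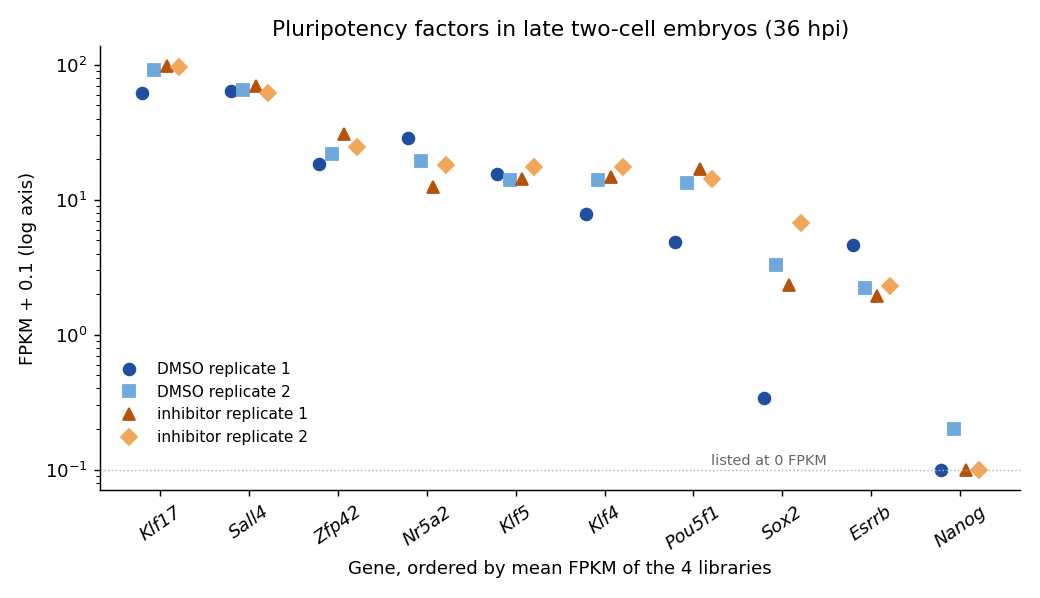
FPKM + 0.1 of each pluripotency factor on a log axis, with 1 point per library and genes ordered by mean FPKM. *Klf17* and *Sall4* lie above 60 FPKM in every library, *Nanog* is listed at 0 in 3 libraries, and DMSO replicate 1 (dark circles) is lowest for *Pou5f1*, *Sox2* and *Klf4* and highest for *Esrrb* and *Nr5a2*.

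The spread over the libraries also differed between factors. The coefficient of variation of FPKM was 4.90% for *Sall4* and 10.1% for *Klf5*, against 42.5% for *Pou5f1*, 46.7% for *Esrrb* and 86.7% for *Sox2*. DMSO replicates 1 and 2 were more than 2-fold apart in CPM for 3 of the 9 measurable factors (*Pou5f1*, *Sox2* and *Esrrb*), compared with 43.4% of all tested genes. The inhibitor replicates were that far apart for *Sox2* alone, compared with 21.9% of all tested genes. DMSO replicate 1 held the highest or the lowest CPM of all 9 factors, as it did for 78.1% of all tested genes.

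To see whether 10074-G5 changed these factors, the quasi-likelihood test of edgeR was applied to 13549 genes, and a gene was called when |log2FC| exceeded 1 with a Benjamini-Hochberg adjusted p under 0.05. By this test 0 of the 9 measurable factors were called, against a background of 0% of all tested genes. At an unadjusted p under 0.05 the counts were 0 of 9 factors and 14.9% of all genes. DESeq2 on all genes with a count called 0 of the factors and 2.88% of 18208 genes, and edgeR without a filter on low counts called 0 of them and 3.54% of those genes. DESeq2 gave no adjusted p for *Sox2* or for some other genes among the 18208, such as *Klf2*, so these could not be called by it. The CPM values of the groups did not overlap, with inhibitor higher, for 4 factors (*Pou5f1*, *Klf4*, *Klf17* and *Zfp42*), where the background was 28.9% of all genes. Non-overlap with inhibitor lower was seen for 1 factor (*Nr5a2*), where the background was 28.3%. The groups overlapped for *Sox2*, *Klf5*, *Esrrb* and *Sall4*. With 2 libraries a group, the smallest two-sided p of an exact permutation test is 0.333.

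The size of the differences was set beside that of all genes. The median |log2FC| of the factors was 0.46, beside 0.75 over all tested genes, and their median signed log2FC was 0.22, beside 0.04. Without DMSO replicate 1 the median |log2FC| was 0.19, beside 0.52, and the largest was 0.47. These medians were not matched for expression level, so they do not show that the factors changed less than genes of similar level. Without DMSO replicate 2, where the remaining DMSO library is assumed to vary like the inhibitor pair, edgeR called 4 factors (*Pou5f1*, *Sox2*, *Esrrb* and *Nr5a2*), against a background of 30.8%. In that fit DMSO replicate 1 is the only control.

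**Figure D2:**
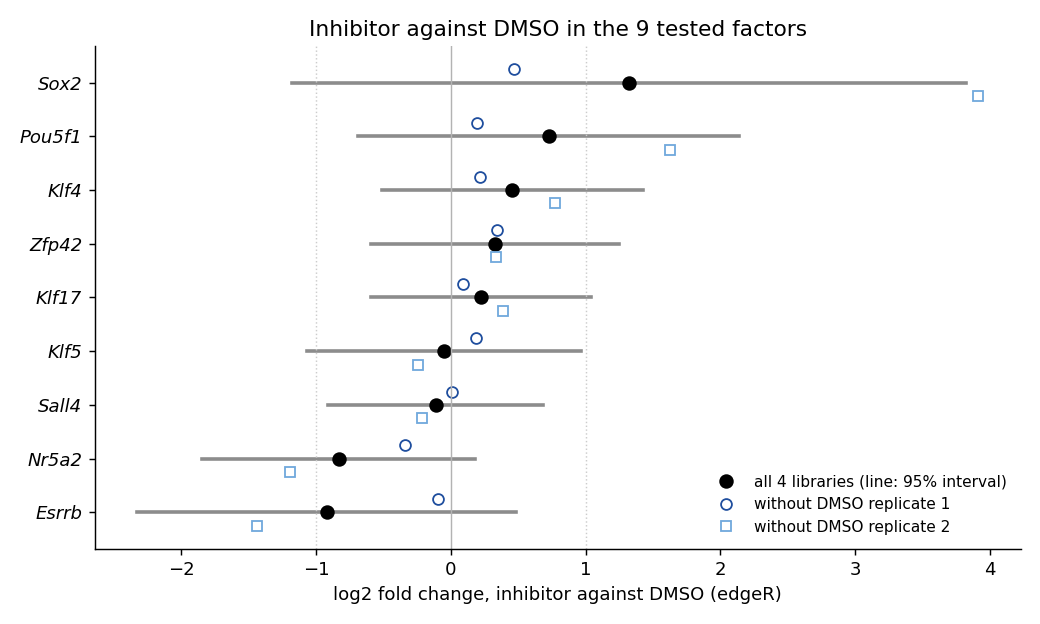
log2 fold change of inhibitor against DMSO from edgeR for the 9 tested factors, with filled points for all 4 libraries, lines for their 95% intervals, and open points for fits without 1 of the DMSO libraries. All 9 intervals include 0, and the values without DMSO replicate 1 lie between −0.34 and 0.47.

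*Pou5f1* (chr17:35506032-35510777), whose product OCT4 is the POU factor required to form the inner cell mass, had 4.75 and 13.24 FPKM in the DMSO libraries and 16.71 and 14.20 FPKM in the inhibitor libraries. DMSO replicate 1 was low, and the other 3 libraries lay close together. The mean CPM was 9.04 ± 5.93 (SD, n = 2) with DMSO and 15 ± 0.83 with inhibitor. The log2FC was 0.73 ± 0.61 (SE) with an edgeR adjusted p of 0.559, and its 95% interval ran from 0.622-fold to 4.41-fold. Without DMSO replicate 1 the log2FC was 0.19, and without DMSO replicate 2 it was 1.63 with an edgeR adjusted p of 0.0383. The mean transcript length that RSEM assigned to *Pou5f1* also varied, from 1170 bases in DMSO replicate 1 to 1353 bases in inhibitor replicate 2. The reference annotation lists 5 *Pou5f1* pseudogenes, none of which is in the tables, so reads shared with them make these values uncertain.

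*Sox2* (chr3:34649995-34652461), the HMG-box partner of OCT4, had the highest coefficient of variation of the 9 measurable factors. It had 10 and 126 counts in the DMSO libraries and 101 and 284 counts in the inhibitor libraries, or 0.24, 3.18, 2.23 and 6.59 FPKM. The groups overlapped, because inhibitor replicate 1 lay below DMSO replicate 2. The log2FC was 1.32 ± 1.07 (SE) with an edgeR adjusted p of 0.549, and the 95% interval, from 0.442-fold to 14.1-fold, included both a fall and a rise. Leaving out DMSO replicate 1 gave a log2FC of 0.47, and leaving out DMSO replicate 2 gave 3.91 with an edgeR adjusted p of 0.0179. *Sox2* lies within the noncoding gene *Sox2ot*, which had 2 counts in DMSO replicate 2 and 0 elsewhere. The ratio of *Pou5f1* to *Sox2* FPKM was 19.8 and 4.16 in the DMSO libraries and 7.49 and 2.15 in the inhibitor libraries, so the balance of the OCT4 and SOX2 transcripts differed as much within a group as between groups.

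*Klf17* (chr4:117756659-117765666), a Krüppel-like factor of the oocyte and early embryo, had 61.64 and 91.23 FPKM with DMSO and 97.17 and 97.04 FPKM with inhibitor. It ranked between 1214 and 1758 among the listed genes of a library by FPKM. The inhibitor replicates were nearly equal and lay above both DMSO libraries. The mean CPM was 263 ± 40.4 (SD, n = 2) with DMSO and 307 ± 4.34 with inhibitor, and the log2FC was 0.22 ± 0.35 (SE) with an edgeR adjusted p of 0.775. Its 95% interval ran from 0.663-fold to 2.06-fold, and its log2FC without DMSO replicate 1 was 0.09. The 250 bases before its RefSeq start (GRCm38.p6, chr4:117765667-117765916, minus strand) are shown because this is the most abundant of the factors and the window holds the letters GGGNGTG of a Krüppel-like factor motif, in capitals, beginning 33 bases before the start.
Klf17: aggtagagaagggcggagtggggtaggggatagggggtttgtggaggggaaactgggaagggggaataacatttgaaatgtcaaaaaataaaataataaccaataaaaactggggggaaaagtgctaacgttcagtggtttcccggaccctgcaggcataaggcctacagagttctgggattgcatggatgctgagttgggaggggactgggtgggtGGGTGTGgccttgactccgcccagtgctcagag

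*Klf4* (chr4:55527137-55532475), one of the reprogramming factors, had 7.78 and 13.81 FPKM with DMSO and 14.76 and 17.28 FPKM with inhibitor. Both inhibitor libraries were higher than both DMSO libraries, and DMSO replicate 1 was the lowest. The mean CPM was 30.7 ± 8.58 (SD, n = 2) with DMSO and 42.2 ± 4.13 with inhibitor. The log2FC was 0.46 ± 0.41 (SE) with an edgeR adjusted p of 0.594, and the 95% interval ran from 0.703-fold to 2.68-fold. Leaving out DMSO replicate 1 reduced the log2FC to 0.21. The promoter window of *Klf4* (GRCm38.p6, chr4:55532476-55532725, minus strand) is shown because, of the 8 factors with a window in the RefSeq table, it was the 1 that held CACGTG, the E-box of MYC-MAX. The E-box, in capitals, begins 182 bases before the start.
Klf4: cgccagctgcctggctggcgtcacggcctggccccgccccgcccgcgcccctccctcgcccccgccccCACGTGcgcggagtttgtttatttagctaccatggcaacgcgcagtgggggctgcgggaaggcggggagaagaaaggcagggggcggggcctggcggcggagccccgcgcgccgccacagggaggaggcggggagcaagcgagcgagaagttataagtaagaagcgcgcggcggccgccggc

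CACGTG was present in 6.02% of all 32851 promoter windows of the same length. A match describes letters only and is not evidence that MYC binds there. Because some genes have more than 1 annotated start, the 8 factors had 12 windows, and CACGTG was in 1 of them. On both strands, GGGNGTG was present in 7 of the 12 windows, belonging to 6 factors, and in 26.1% of all windows. The windows of *Nanog* overlap and share a GGGCGTG, so they are not separate cases. ATGCAAAT, the octamer, was in 1 of the 12 and in 1.60% of all windows, and AAGGTCA, a nuclear receptor binding motif, in 0 of the 12 and in 4.08%.

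*Klf5* (chr14:99298691-99313412), a Krüppel-like factor needed for the early lineages of the blastocyst, had 15.57 and 13.88 FPKM with DMSO and 14.27 and 17.29 FPKM with inhibitor. Its 4 values were close and the groups overlapped. The log2FC was −0.05 ± 0.44 (SE), with an edgeR adjusted p of 0.964 and a 95% interval from 0.477-fold to 1.95-fold. The sign turned without DMSO replicate 1, where the log2FC was 0.19.

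The summed FPKM of the 17 listed KLF genes was 144 and 192 with DMSO and 207 and 217 with inhibitor. *Klf17* made up 42.8% and 47.4% of it with DMSO and 46.9% and 44.8% with inhibitor. *Klf4*, *Klf5* and *Klf17* together made up 59.0% to 61.8% of the family in every library. The shares of single genes were less steady, that of *Klf5* being 10.8% in DMSO replicate 1 and 6.89% to 7.98% in the other libraries.

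**Figure D3:**
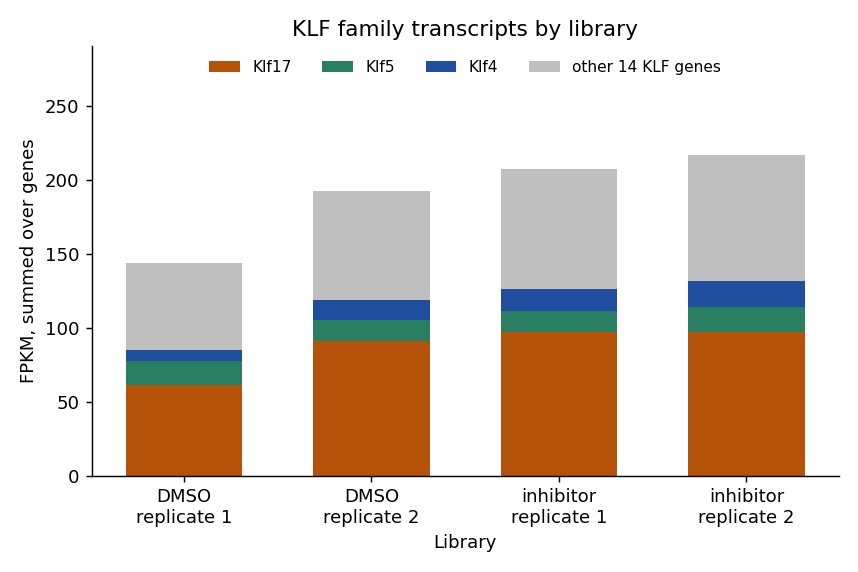
Stacked FPKM of *Klf17*, *Klf5*, *Klf4* and the other 14 KLF genes in each library. The total lies between 144 FPKM in DMSO replicate 1 and 217 FPKM in inhibitor replicate 2, while *Klf17* stays between 42.8% and 47.4% of it.

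*Nr5a2* (chr1:136842562-136960448), an orphan nuclear receptor that activates *Pou5f1*, had the smallest edgeR p of the factors. It had 28.84 and 19.24 FPKM with DMSO and 12.45 and 17.91 FPKM with inhibitor. Both inhibitor libraries lay below both DMSO libraries, although inhibitor replicate 2 was only slightly under DMSO replicate 2. The mean CPM was 86.6 ± 34.5 (SD, n = 2) with DMSO and 48.6 ± 11.5 with inhibitor, and the log2FC was −0.83 ± 0.43 (SE) with an edgeR adjusted p of 0.384. The 95% interval ran from 0.278-fold to 1.13-fold. Without DMSO replicate 1 the log2FC was −0.34, and without DMSO replicate 2 it was −1.19 with an edgeR adjusted p of 0.0151.

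*Esrrb* (chr12:86361117-86521628), an orphan nuclear receptor that maintains embryonic stem cells, had 4.53 and 2.14 FPKM with DMSO and 1.83 and 2.19 FPKM with inhibitor. DMSO replicate 1 was high and the other 3 libraries were alike. The mean CPM was 14.2 ± 8.67 (SD, n = 2) with DMSO and 7.51 ± 0.848 with inhibitor. The log2FC was −0.92 ± 0.60 (SE), with an edgeR adjusted p of 0.465 and a 95% interval from 0.199-fold to 1.40-fold, and it was −0.09 without DMSO replicate 1. Without DMSO replicate 2 the log2FC was −1.44 with an edgeR adjusted p of 0.0388. The ratio of *Nr5a2* to *Esrrb* FPKM was between 6.37 and 8.99 in the 4 libraries, so *Nr5a2* was the more abundant receptor throughout.

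*Sall4* (chr2:168748332-168767201), a zinc finger factor needed for the inner cell mass, had the lowest coefficient of variation of the 9 measurable factors. It had 64.26 and 65.33 FPKM with DMSO and 69.36 and 61.68 FPKM with inhibitor, and the groups overlapped. The log2FC was −0.11 ± 0.34 (SE), with an edgeR adjusted p of 0.889 and a 95% interval from 0.531-fold to 1.61-fold. Omitting DMSO replicate 1 gave a log2FC of 0.01. *Sall4* and *Esrrb* each overlap a noncoding gene of the annotation (*Gm14261* and *Gm40483*), and the sources used here do not say whether reads were counted by strand.

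*Zfp42* (chr8:43295067-43307009), which encodes REX1, a zinc finger marker of naive stem cells, had 18.26 and 21.81 FPKM with DMSO and 30.69 and 24.45 FPKM with inhibitor. The DMSO replicates were almost equal in CPM, at 31.9 ± 0.0881 (SD, n = 2), and lay below the inhibitor libraries, at 40.1 ± 6.98. The log2FC was 0.33 ± 0.40 (SE), with an edgeR adjusted p of 0.696 and a 95% interval from 0.664-fold to 2.38-fold. *Zfp42* was the factor whose value changed least with the control used, with a log2FC of 0.34 without DMSO replicate 1 and 0.33 without DMSO replicate 2. A pseudogene of *Zfp42* is annotated and is not in the tables, so its reads are uncertain. The promoter window (GRCm38.p6, chr8:43307010-43307259, minus strand) is shown because it was the 1 window of the factors with the octamer ATGCAAAT bound by OCT4. The match lies on the opposite strand and so reads ATTTGCAT, in capitals, from 186 bases before the start.
Zfp42: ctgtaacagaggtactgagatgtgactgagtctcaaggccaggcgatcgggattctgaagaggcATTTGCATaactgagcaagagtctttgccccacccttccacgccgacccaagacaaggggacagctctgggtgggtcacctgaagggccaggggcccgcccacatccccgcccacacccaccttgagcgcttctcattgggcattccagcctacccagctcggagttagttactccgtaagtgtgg

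**Figure D4:**
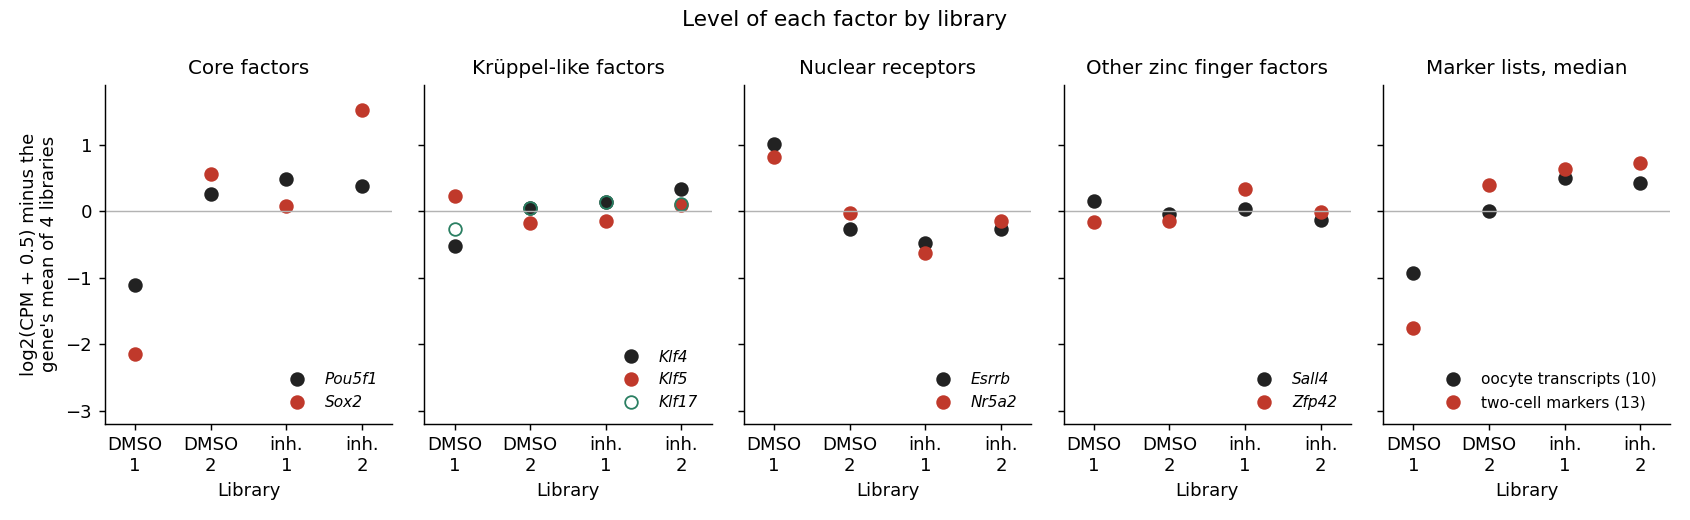
log2(CPM + 0.5) of each measurable factor minus its mean over the 4 libraries, grouped by role, with the medians of 10 oocyte transcripts and 13 two-cell markers in the last panel; "inh." is inhibitor. DMSO replicate 1 lies farthest from 0 for the core factors, the nuclear receptors and both marker lists, while *Sall4* and *Klf5* stay close to 0 in every library.

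The genes whose pattern was most like that of 2 of the factors were found among 7172 genes with a mean CPM of at least 10, by the Euclidean distance of centred log2 CPM over the 4 libraries. For *Klf17*, the most abundant factor, these were *Cenpj* (distance 0.036), *Fh1* (0.0498) and *Nras* (0.0539). For *Nr5a2* they were *Bend3* (0.0461), *Nanp* (0.05) and *Pank2* (0.0690). Such patterns were common, with 470 genes within a distance of 0.3 of *Klf17* and 320 within 0.3 of *Nr5a2*.

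The factors were set beside 5 lists of related genes, of which 69 genes passed the filter on low counts. edgeR called 0 of these genes with all libraries, and DESeq2 called 4, all lower with inhibitor, beside the 2.88% of all genes given above. That share also covers genes that the filter on low counts removed. In the paper's own DESeq2 comparison most of the genes called were also lower with inhibitor. Some listed genes had no DESeq2 adjusted p and could not be called by it. In the simulations described below, 36 of 115 DESeq2 calls were false on average. That share depends on the settings of the simulation, and the share of false calls among these 4 genes was not estimated. Without DMSO replicate 2 edgeR called 23 of them, beside the 30.8% of all genes. At an unadjusted edgeR p under 0.05, 4.72% of all tested genes were higher with inhibitor and 10.1% were lower, which is the background for the counts by list that follow.

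Among 24 other factors of the network, 21 were tested, of which 1 was higher and 2 were lower at an unadjusted edgeR p under 0.05, beside 14.9% of all genes in both directions. Their median log2FC was −0.21, and −0.08 without DMSO replicate 1. *Prdm14*, which represses differentiation genes in stem cells, had 9.68 and 5.11 FPKM with DMSO and 2.23 and 3.84 FPKM with inhibitor (log2FC −1.47, edgeR adjusted p = 0.334), and its log2FC was −0.75 without DMSO replicate 1. *Thap11*, also called Ronin, had 178.41 and 93.05 FPKM with DMSO and 64.64 and 76.02 FPKM with inhibitor (log2FC −1.13, edgeR adjusted p = 0.333), and its log2FC was −0.40 without DMSO replicate 1. *Otx2*, a factor of the later epiblast, was at 0 counts in both DMSO libraries and at 26 and 24 counts in the inhibitor libraries, at least 6.94-fold higher than a floor of 3 counts per DMSO library, and DMSO replicate 2 alone was also at 0. *Rif1*, a replication timing factor with the highest mean FPKM of the list, had a log2FC of −0.31, and −0.10 without DMSO replicate 1. *Gbx2* had a log2FC of 0.91, and 0.37 without DMSO replicate 1, and *Tfap2c* had −1.18, and −0.50 without it. In this list *Prdm14*, *Thap11*, *Gbx2* and *Tfap2c* were called, in the fit without DMSO replicate 2 alone.

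Of 23 other KLF and SP genes, 16 were tested, with 1 higher and 1 lower at an unadjusted edgeR p under 0.05, beside 14.9% of all genes. Their median log2FC was −0.32, and it turned to 0.06 without DMSO replicate 1 and to 0.15 without inhibitor replicate 2. *Klf6* had 0.13 and 1.34 FPKM with DMSO and 3.71 and 4.03 FPKM with inhibitor (log2FC 2.35, edgeR adjusted p = 0.333), was called by edgeR with no filter and without DMSO replicate 2, and had a log2FC of 1.53 without DMSO replicate 1. *Klf9* had 10.5 and 11.36 FPKM with DMSO and 4.46 and 6.26 FPKM with inhibitor, and its log2FC of −1.17 changed little, to −1.08, without DMSO replicate 1. *Klf7* had a log2FC of 1.29, and 0.84 without DMSO replicate 1. *Sp3* had −0.89, and −0.31 without that library, and *Klf11* had −0.15, and −0.09 without it. *Klf10* had 0.91, and 0.50 without it, and *Sp6* had −0.999, and −0.47 without it. *Klf7*, *Klf9*, *Klf10*, *Sp3* and *Sp6* were called in the fit without DMSO replicate 2 alone.

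Of 15 genes known as targets of OCT4 and SOX2 in stem cells, 12 were tested, and 0 were higher and 3 lower at an unadjusted edgeR p under 0.05, beside 4.72% and 10.1% of all genes. Their median log2FC was −0.39, and −0.30 without DMSO replicate 1. *Fgf4*, the growth factor that OCT4 and SOX2 activate together, had 9.83 and 11.19 FPKM with DMSO and 2.14 and 3.16 FPKM with inhibitor. The groups did not overlap, with a log2FC of −2.13 ± 0.47 (SE) and an edgeR adjusted p of 0.333, and DESeq2 called it with an adjusted p of 0.00874. Without DMSO replicate 1 its log2FC was −2.08. *Dppa5a*, an RNA-binding protein gene of stem cells, had 8884 and 3707 FPKM with DMSO and 1063 and 1595 FPKM with inhibitor, and DESeq2 called it with an adjusted p of 0.00112. Its log2FC of −2.43 was −1.47 without DMSO replicate 1. *Fbxo15*, a reporter gene of reprogramming, had 1260 and 729 FPKM with DMSO and 413 and 566 FPKM with inhibitor (log2FC −1.20, edgeR adjusted p = 0.333), and its log2FC was −0.57 without DMSO replicate 1. *Spp1*, *Trh* and *Phc1* had log2FC values of 2.41, 1.5 and 1.32, and of 1.43, 0.52 and 0.59 without DMSO replicate 1. In that library *Spp1* and *Trh* were at 0 counts, and it is the only control when DMSO replicate 2 is left out. DMSO replicate 2 had 233 counts of *Spp1*, and the inhibitor libraries had 1062 and 351. For *Trh* these counts were 25, and 57 and 24, and its groups overlapped. *Fbxo15*, *Spp1*, *Trh* and *Phc1* were called in the fit without DMSO replicate 2 alone.

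Of 16 genes of LIF, FGF and BMP signalling, 15 were tested, with 0 higher and 1 lower at an unadjusted edgeR p under 0.05, beside 14.9% of all genes. Their median log2FC was 0.64, and 0.30 without DMSO replicate 1, and for 10 of them the inhibitor libraries were higher without overlap, beside 28.9% of all genes. *Socs3*, the feedback inhibitor of LIF signalling, had 14.14 and 1.66 FPKM with DMSO and 0.77 and 1.78 FPKM with inhibitor. DESeq2 called it with an adjusted p of 0.0285, but the groups overlapped and its log2FC of −2.88 became −0.39 without DMSO replicate 1. *Jak1*, a kinase that signals from the LIF receptor, had 9.93 and 17.05 FPKM with DMSO and 28.75 and 24.72 FPKM with inhibitor (log2FC 0.87, edgeR adjusted p = 0.337), and its log2FC was 0.65 without DMSO replicate 1. *Il6st*, the receptor chain gp130, had a log2FC of 0.94, and 0.61 without DMSO replicate 1. *Jak2* had 0.58, *Id2* 0.74 and *Smad1* 0.98, and without that library they had 0.24, 0.30 and 0.25. *Jak1*, *Jak2*, *Id2* and *Smad1* were called in the fit without DMSO replicate 2 alone.

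Of 9 factors of the trophectoderm and primitive endoderm, 7 were tested, with 0 higher and 2 lower at an unadjusted edgeR p under 0.05, beside 14.9% of all genes. Their median log2FC of 0.49 turned to −0.16 without DMSO replicate 1, to −0.02 without DMSO replicate 2 and to −0.997 without inhibitor replicate 1, so it has no stable sign. With limma it was −1.01 on log2(FPKM + 1) and −1.07 on log2(FPKM + 0.1). Those fits keep genes with a mean of at least 1 FPKM, here *Gata3*, *Tead4* and *Gata4*, so they cover fewer genes. With no filter limma on log2(FPKM + 1) gave 0.04. *Tead4*, the partner of YAP in the trophectoderm, had 7.98 and 4.81 FPKM with DMSO and 1.82 and 1.01 FPKM with inhibitor, and DESeq2 called it with an adjusted p of 0.0194. Its log2FC was −2.34, and −1.77 without DMSO replicate 1. *Gata4*, a factor of the primitive endoderm, had 23.36 and 20.66 FPKM with DMSO and 9.07 and 12 FPKM with inhibitor (log2FC −1.22, edgeR adjusted p = 0.333), its log2FC was −0.97 without DMSO replicate 1, and it was called in the fit without DMSO replicate 2 alone. *Gata3* had a log2FC of 0.49 with overlapping groups, which turned to −0.19 without DMSO replicate 1. The trophectoderm factor *Cdx2* did not exceed 0.12 FPKM in a library.

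**Figure D5:**
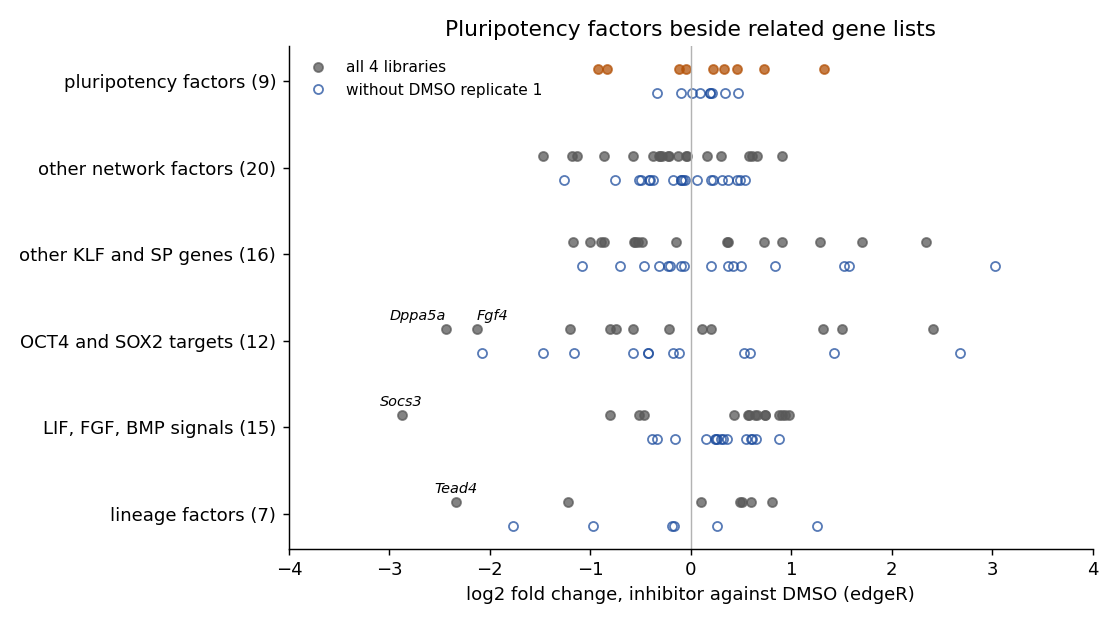
log2 fold change of inhibitor against DMSO from edgeR for the 9 factors (orange) and the tested genes of 5 related lists, with all libraries (filled) and without DMSO replicate 1 (open). The names mark the 4 genes called by DESeq2, all lower with inhibitor, and *Otx2* is left out because its fold is a bound. *Pdgfra*, named here after its value was seen, lies beyond the axis at 6.39 without DMSO replicate 1. Its remaining control library is at 0 counts in that fit.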

How the data were processed

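Polyadenylated RNA of late two-cell embryos was sequenced as read pairs in 4 libraries, which were grouped and numbered by their labels. The labels start the treatment at 3 hpi and the methods of the study at 6 hpi, and no value here depends on it. The authors aligned the reads to mm10 with STAR (2.7.10), kept the reads that mapped uniquely and estimated gene levels with RSEM (1.3.3). The deposited expected count of a gene is RSEM's estimate of its fragments and is not normalized. The deposited FPKM is corrected for transcript length and library, and the deposited TPM for length and to a fixed total per library. The transcript lengths deposited by the authors were used as offsets in 1 alternative. Unique mapping removes reads that map equally well to near-identical copies of a gene.

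Expected counts were rounded, genes were kept by filterByExpr (minimum count 10, minimum total 15), and TMM factors (0.873, 1.04, 1.04 and 1.06) scaled the libraries. Differences were tested with edgeR 4.0.16 in R 4.3.3 (quasi-likelihood test, robust, Benjamini-Hochberg adjustment over all genes tested). The common biological coefficient of variation was 0.557. Alternatives were DESeq2 1.42.0 and limma 3.58.1 on log2(FPKM + 1) or log2(FPKM + 0.1), other scalings and filters, the replicate number as a block, and each library left out in turn. Counts were simulated for inhibitor against DMSO, with a log2 change of 2 in 200 of 13549 genes. edgeR recovered 14.2% of the changed genes and DESeq2 39.5% (means of 3 simulations). On average, 2 of 30.3 calls by edgeR were false, and 36 of 115 calls by DESeq2. In these simulations the higher recovery of DESeq2 thus came with a larger share of false calls.

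The 10 factors and the 5 lists were chosen with earlier results of these data known. The text names every factor, and of each list the 3 genes with the smallest unadjusted p, the 2 with the highest mean FPKM and those called by any fit. Promoter windows are the 250 bases before each RefSeq start on GRCm38.p6.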

Additional observations from a re-analysis of the deposited data

How the results depend on the processing

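Of 135 refits of single factors (9 factors under 15 alternatives each), 120 kept their direction and their side of the thresholds, 11 turned the sign and 4 became called, all 4 without DMSO replicate 2. The 120 include *Sox2* in the 3 forms of DESeq2. These gave it no adjusted p, so it could not be called there and only its direction was compared. The sign turned for *Klf5* and *Sall4* alone. The log2FC of *Klf5* was 0.0899 with limma on log2(FPKM + 1), with or without a filter, 0.0950 with limma on log2(FPKM + 0.1) and 0.10 with library totals. That of *Sall4* was 0.0135 with limma on log2(FPKM + 1), with or without a filter, 0.0136 on log2(FPKM + 0.1) and 0.0321 with library totals. With 1 library left out, *Klf5* ranged from −0.25 to 0.19 and *Sall4* from −0.21 to 0.00822, and the number of factors called from 0 to 4. The median log2FC of the factors was 0.37 with limma on log2(FPKM + 1), with or without a filter, 0.37 with limma on log2(FPKM + 0.1) and 0.35 with library totals, and ranged from 0.18 to 0.33 with 1 library left out. Library totals moved the median of all genes from 0.04 to 0.17. Of the listed related genes, DESeq2 called 4 in each of its 3 forms and edgeR without a filter 5, and with 1 library left out edgeR called 0 to 23. The causes were not tested. The replicate number as a block called 0 factors and gave *Sox2* a log2FC of 1.92 with an edgeR adjusted p of 0.319. Over the tested genes, the deviations of same-numbered libraries from their group means had a correlation of −0.07. With 2 libraries a group, replicate 2 deviates as the mirror of replicate 1. This value therefore cannot decide whether the libraries were paired, and the main fit did not take the number as a pairing. With 2 libraries a group, the 95% intervals of all 9 factors are wide, and changes within them were not detectable at this replication.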
